A study of Mus musculus with 10 samples.

Results

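The genes described are 10 imprinted genes of the mouse, chosen by symbol from loci whose control regions are methylated in the egg: Igf2r, Airn, Grb10, Nnat, Blcap, Gnas, Plagl1, Zrsr1, Impact and Commd1. They are 10 of the 36066 genes in the table, and all 10 passed the filter on low values (at least 0.1 TPM in at least 2 libraries), as did 27259 genes in all. RNA was sequenced from 10 libraries in 5 groups of 2 replicates each, and levels are in TPM (transcripts per 1000000), which divides reads by gene length and scales each library to the same total. Reads recovered from the deposited values amounted to 6779838 to 18572901 per library.

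All cells were labelled as strain C57BL6, and the cultured lines carried an Actin-GFP transgene according to the study's methods. ESCs were a female embryonic stem cell line from fertilized blastocysts, with a maternal and a paternal set of chromosomes. pESCs were a parthenogenetic line from oocytes activated with strontium without sperm, so that both sets of chromosomes were maternal. Both lines were grown on feeder layers of mouse embryonic fibroblasts. ESC-PGCLCs and pESC-PGCLCs were the primordial germ cell-like cells made from each line through epiblast-like cells and 4 days with BMP4, SCF, EGF and LIF, and sorted for SSEA1 and CD61. PGCs were primordial germ cells from female embryos, isolated by flow cytometry for SSEA1 and CD61 or with magnetic beads for SSEA1 alone. The study's methods do not say which was used for these libraries, and the labels of these libraries gave no embryonic day. The study describes its RNA-seq as having 2 biological replicates, a term it uses for mice or repeats of cell studies. The labels did not say whether the 2 replicates of a group came from separate cultures or litters. The p-values thus measure the spread between these libraries, and how much of it is technical is not known.

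Imprinted genes are expressed mainly from the copy inherited from a given parent, because DNA methylation laid down in the egg or the sperm marks a control region nearby. In cells with maternal chromosomes alone, genes of the maternal copy have an active copy on each chromosome, whereas genes of the paternal copy have none as long as the mark is kept. Primordial germ cells erase these marks as they mature, which is why the study followed imprinted genes from stem cells to germ cells.

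The labelled cell types were checked against marker genes. The 12 germ cell markers summed to 67.6 to 94.4 TPM in the 4 stem cell libraries, 2281 to 3981 TPM in the PGCLC libraries and 3181 to 3731 TPM in PGCs. Among them Dazl and Ddx4, which primordial germ cells turn on around the time they reach the gonad, were already at 1084 to 1821 TPM and 186.3 to 281.4 TPM in the PGCLC libraries. Levels of these genes are usually low in primordial germ cell-like cells after so short an induction, so what the libraries labelled as PGCLCs hold is uncertain, and each comparison with them below is one of labelled libraries. The 8 pluripotency markers summed to 667 to 1082 TPM in stem cells and 137 to 222 TPM in the germ cell groups. Fibroblast markers, which feeder cells would bring, summed to less than 1 TPM in every stem cell library, with 2 to 4 of the 12 above 0.1 TPM. Their sum was 6.23 to 6.38 TPM in ESC-PGCLCs, 10.8 to 12.6 TPM in pESC-PGCLCs and 13.995 to 14.6 TPM in PGCs, with 9 to 11 of the 12 above 0.1 TPM. The sums of gonadal somatic cell markers had the same order of groups, with 7.09 to 9.57 TPM in stem cells, 28.6 to 36.4 TPM in ESC-PGCLCs, 70.6 to 76.8 TPM in pESC-PGCLCs and 125 to 154 TPM in PGCs. Blood cell markers summed to 0.115 to 4.59 TPM in stem cells, 492 to 562 TPM in ESC-PGCLCs, 2903 to 3439 TPM in pESC-PGCLCs and 1989 to 2200 TPM in PGCs, with 7 to 10 of the 10 above 0.1 TPM in the germ cell groups. Their part in the results below was not tested, and in bulk RNA fewer cells of a type and less RNA per cell cannot be told apart.

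**Figure D1:**
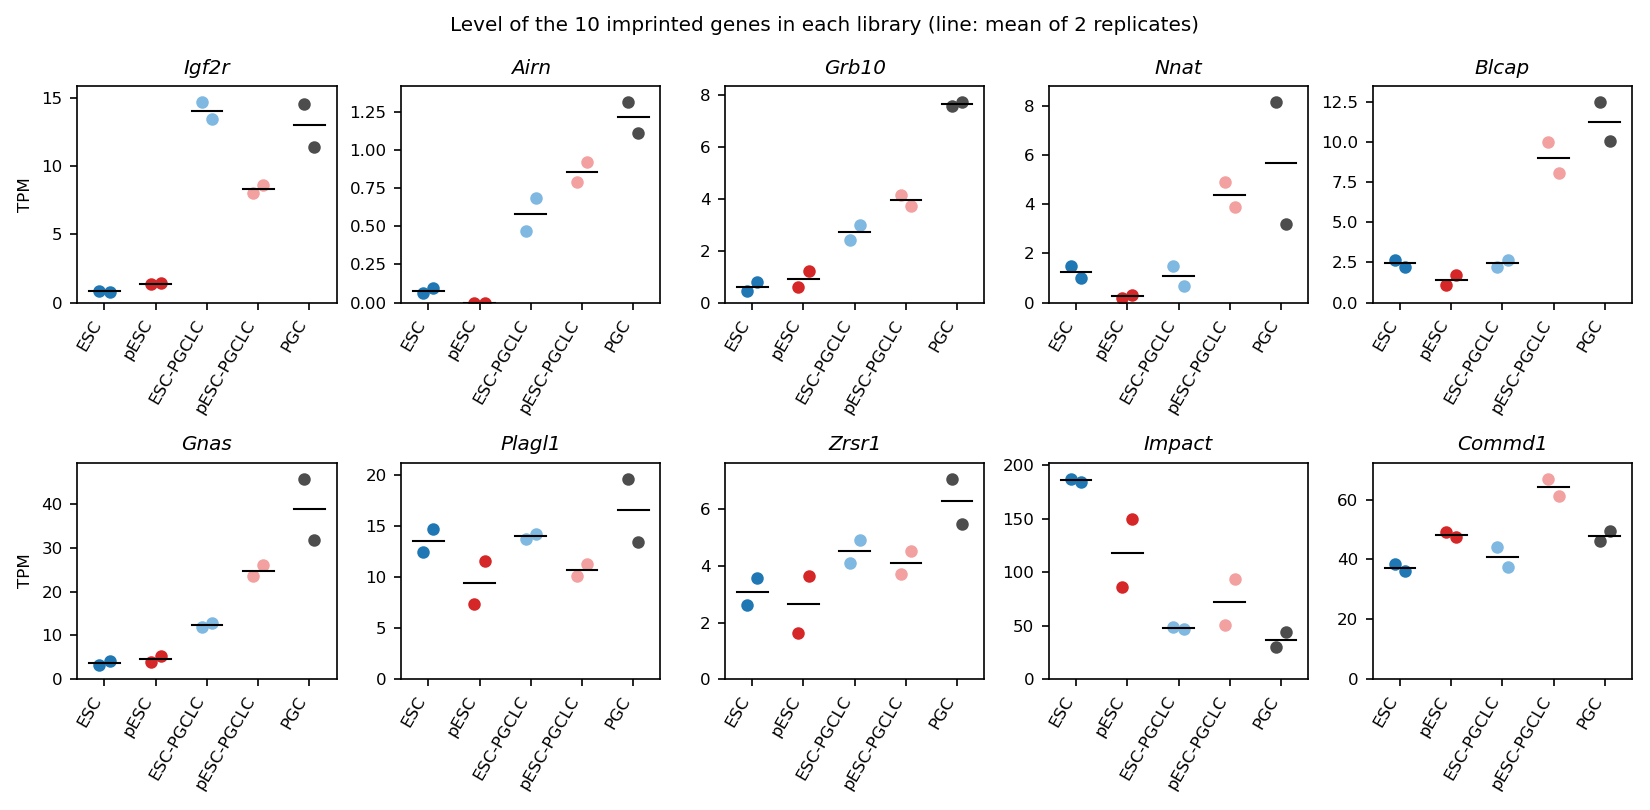
Level in TPM (vertical axis, from 0, with its own scale for each gene) of the 10 imprinted genes in the 5 groups (horizontal axis); each point is a library and each line the mean of 2 replicates. Igf2r was at 0.758 to 1.43 TPM in the 4 stem cell libraries and at 8.01 to 14.7 TPM in the 6 germ cell libraries, whereas Impact was highest in the ESC libraries at 184.8 and 187.7 TPM.

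Igf2r and Airn are a sense and antisense pair on chromosome 17. Igf2r encodes the cation-independent mannose 6-phosphate receptor, which carries enzymes to lysosomes and removes the growth factor Igf2 from the cell surface, and it is expressed from the maternal copy. Airn is a long noncoding RNA of the paternal copy that starts within an intron of Igf2r, runs against it and silences it in cis. In GRCm38 the annotation places Igf2r at chr17:12682406-12769664 on the minus strand and Airn at chr17:12741311-12860136 on the plus strand. Their exons shared 0 bases, and 96.8% of the exon bases of Airn lay outside the Igf2r gene. The kit named in the labels does not mark strand, and reads of unspliced Igf2r RNA could be counted for Airn over the 114 exon bases (3.17%) within the gene. What share of the Airn reads fell there was not tested.

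The 250 bases before the start of each are shown because they are the promoters of the opposed transcripts of this locus (RefSeq, GRCm38.p6, 5′ to 3′ on the gene's own strand; CG dinucleotides, the sites of DNA methylation, in capitals). The first is chr17:12769707-12769956 on the minus strand and the second chr17:12741061-12741310 on the plus strand.
Igf2r: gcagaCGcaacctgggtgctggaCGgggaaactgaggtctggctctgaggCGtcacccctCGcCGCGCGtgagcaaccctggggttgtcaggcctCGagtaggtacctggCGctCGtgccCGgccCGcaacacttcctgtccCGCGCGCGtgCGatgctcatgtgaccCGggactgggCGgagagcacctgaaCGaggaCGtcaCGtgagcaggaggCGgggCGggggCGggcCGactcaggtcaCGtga
Airn: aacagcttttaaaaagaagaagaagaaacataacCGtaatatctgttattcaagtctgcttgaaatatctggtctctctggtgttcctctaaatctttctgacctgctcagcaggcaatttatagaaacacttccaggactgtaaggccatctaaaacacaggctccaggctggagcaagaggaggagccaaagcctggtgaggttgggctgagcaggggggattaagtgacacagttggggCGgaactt
The Igf2r window held 27 CG dinucleotides and the Airn window 2, beside a median of 6 over 32851 promoters of the same length. Expression alone was measured here, and methylation of these bases was not analysed here.

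Igf2r was at 0.874 and 0.758 TPM in ESCs, at 1.34 and 1.43 TPM in pESCs, at 14.7 and 13.4 TPM in ESC-PGCLCs, at 8.01 and 8.59 TPM in pESC-PGCLCs and at 14.6 and 11.4 TPM in PGCs. Both stem cell groups were low, and pESC-PGCLCs lay below both other germ cell groups without overlap. ESC-PGCLCs and PGCs, the highest groups, overlapped. Relative to ESCs, Igf2r rose in ESC-PGCLCs by 3.05 on the log2 scale (standard error 0.164, adjusted p = 6.45e-06, limma). It rose less from pESCs to pESC-PGCLCs, by 1.96 (adjusted p = 6.54e-05, limma), and the difference between these changes passed the test at -1.09 (standard error 0.232, adjusted p = 0.0130, limma).

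Airn was scarce throughout. It was at 0.0606 and 0.0939 TPM in ESCs (6 reads in the group), at 0 in both pESC libraries (0 reads), at 0.469 and 0.686 TPM in ESC-PGCLCs (18 reads), at 0.787 and 0.920 TPM in pESC-PGCLCs (55 reads) and at 1.31 and 1.11 TPM in PGCs (66 reads). The 0 reads in pESCs allow a level of up to 0.0962 TPM, the value of 3 reads in a single library, and the ESC libraries were below that limit too. A difference in Airn between pESCs and ESCs was therefore not detectable at this depth. The lowest pESC-PGCLC library was at least 8.17-fold higher than that limit, and the lowest PGC library at least 11.6-fold higher. On the log2(TPM + 1) scale Airn passed the adjusted p on differentiation of both lines (adjusted p = 0.00844 for ESCs and 0.000817 for pESCs, limma) without reaching 2-fold on that scale, which understates changes of low genes. This limit covers only counting error.

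The balance within the locus can be read as a ratio inside each library, which no scaling between libraries alters. Airn amounted to 9.66 ± 3.86% of the Igf2r level in ESCs, to 4.15 ± 1.35% in ESC-PGCLCs, to 10.3 ± 0.626% in pESC-PGCLCs and to 9.39 ± 0.527% in PGCs (SD, n = 2 each), while no read of Airn was recovered in pESCs. pESC-PGCLCs thus had the higher ratio of both PGCLC groups, without overlap, with more Airn and less Igf2r. The ratios are given as a description and were not tested. That of ESCs rests on 6 reads of Airn, so a difference from pESCs was not detectable.

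**Figure D2:**
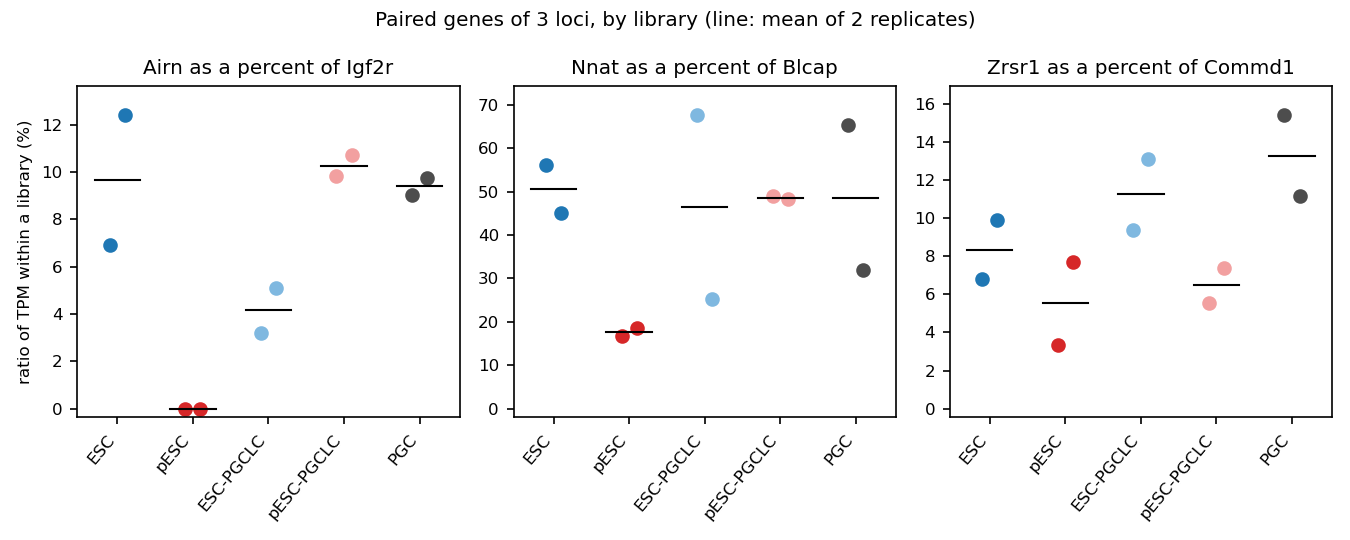
Ratio of the TPM of paired genes within a library (vertical axis, percent; horizontal axis, the 5 groups) for Airn over Igf2r, Nnat over Blcap and Zrsr1 over Commd1; points are libraries and lines are means of 2 replicates. In pESCs the Airn ratio was 0 and the Nnat ratio 17.6 ± 1.31%. No read of Airn was recovered in pESCs, beside 6 in ESCs, so a difference of its ratio between these groups was not detectable. The 2 libraries of ESC-PGCLCs and of PGCs lay far apart for Nnat.

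Grb10 encodes an adaptor protein that binds the receptors for insulin and Igf1 and dampens their signal. It lies at chr11:11930508-12038683 on the minus strand and is expressed from the maternal copy in most tissues and from the paternal copy in neurons. Its level was 0.430 and 0.787 TPM in ESCs, 0.588 and 1.23 TPM in pESCs, 2.41 and 3.001 TPM in ESC-PGCLCs, 4.16 and 3.73 TPM in pESC-PGCLCs and 7.55 and 7.72 TPM in PGCs. The stem cell groups overlapped, and each later group in this order lay above its predecessor without overlap. Grb10 rose on differentiation by 1.21 in the ESC line (standard error 0.220, adjusted p = 0.00254, limma) and by 1.39 in the pESC line (adjusted p = 0.00135, limma), and these changes did not differ detectably (0.18, standard error 0.311, adjusted p = 0.732, limma). In PGCs it was higher than in ESC-PGCLCs by 1.23 (adjusted p = 0.00604, limma) and exceeded pESC-PGCLCs by 0.81, which did not pass (adjusted p = 0.0590, limma). The order of the 3 germ cell groups is that of the fibroblast and gonadal marker sums given above, and the part of such cells was not tested. Within the stem cells the gonadal sums were 8.47 to 9.57 TPM in ESCs and 7.09 to 7.48 TPM in pESCs. They rest on few genes, with 3 to 4 of the 12 above 0.1 TPM in ESCs and 2 in pESCs. Grb10 overlapped between these groups, and a relation to the sums was not tested.

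Nnat and Blcap form a nested pair on chromosome 2. Nnat encodes neuronatin, a small membrane proteolipid known from brain and endocrine cells, and is expressed from the paternal copy. Its gene (chr2:157560078-157562522, plus strand) lies wholly inside Blcap (chr2:157556362-157571274, minus strand), which encodes a small membrane protein and is biased to the maternal copy in brain. Their exons shared 0 bases, although reads of unspliced Blcap RNA could be counted for Nnat, since Nnat lies within an intron and strand was not stated to be used.

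The 250 bases before a RefSeq start of each gene are shown because both rose in the pESC line and are called in the same comparisons (RefSeq, GRCm38.p6, 5′ to 3′ on the gene's own strand, CG dinucleotides in capitals). The Nnat window is chr2:157559828-157560077 on the plus strand and that of Blcap chr2:157566362-157566611 on the minus strand, which belongs to a transcript that starts inside the gene as annotated above and not at its outer end.
Nnat: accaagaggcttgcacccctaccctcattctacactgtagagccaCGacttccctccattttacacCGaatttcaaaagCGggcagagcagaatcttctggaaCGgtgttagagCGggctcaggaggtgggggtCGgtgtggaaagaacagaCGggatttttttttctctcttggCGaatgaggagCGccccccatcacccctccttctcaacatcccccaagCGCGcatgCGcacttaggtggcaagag
Blcap: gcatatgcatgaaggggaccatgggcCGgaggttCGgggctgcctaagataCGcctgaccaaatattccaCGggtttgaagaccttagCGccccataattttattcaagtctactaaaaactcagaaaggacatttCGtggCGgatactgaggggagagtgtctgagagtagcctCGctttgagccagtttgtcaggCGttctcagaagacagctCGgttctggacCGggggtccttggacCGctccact
Each window held 12 CG dinucleotides, beside the median of 6 over all promoters. The hexamer TGCCGC, which the imprint-keeping zinc finger protein ZFP57 binds when methylated, was searched on both strands and was in neither window nor in those of Igf2r and Airn. Among the members with a promoter entry, 9 of 10, only the window of Plagl1 held it, as did 8.68% of all promoters, and its absence says only that these letters are not in these windows.

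Nnat was at 1.48 and 1.01 TPM in ESCs (25 and 22 reads), at 0.187 and 0.315 TPM in pESCs (3 and 5 reads), at 1.49 and 0.672 TPM in ESC-PGCLCs (13 and 5 reads), at 4.88 and 3.89 TPM in pESC-PGCLCs (76 and 67 reads) and at 8.14 and 3.21 TPM in PGCs (95 and 53 reads). pESCs were the lowest group and overlapped with no other. ESCs overlapped with ESC-PGCLCs, and pESC-PGCLCs with PGCs. Nnat rose from pESCs to pESC-PGCLCs by 2.10 on the log2 scale (standard error 0.369, adjusted p = 0.00228, limma), whereas from ESCs to ESC-PGCLCs the value was -0.13 (adjusted p = 0.815, limma). The difference between these changes was 2.23 (standard error 0.521, adjusted p = 0.0188, limma).

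Blcap was at 2.64 and 2.24 TPM in ESCs, at 1.12 and 1.71 TPM in pESCs, at 2.21 and 2.66 TPM in ESC-PGCLCs, at 9.96 and 8.07 TPM in pESC-PGCLCs and at 12.5 and 10.04 TPM in PGCs. The groups stood in the same order as for Nnat, with pESC-PGCLCs and PGCs far above the other 3. Blcap rose from pESCs to pESC-PGCLCs by 2.06 (standard error 0.203, adjusted p = 0.000131, limma) and had a mean of 2.44 TPM in both ESCs and ESC-PGCLCs (log2 difference -0.0015, standard error 0.203, limma). The changes on differentiation differed between the lines by 2.06 (standard error 0.287, adjusted p = 0.00209, limma). Blood cell markers were also low in ESC-PGCLCs relative to pESC-PGCLCs and PGCs, and their part in this result was not tested.

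Within a library Nnat amounted to 50.7 ± 7.79% of Blcap in ESCs and 17.6 ± 1.31% in pESCs (SD, n = 2 each), without overlap, although the pESC values rest on 3 and 5 reads of Nnat. In pESC-PGCLCs the ratio was 48.6 ± 0.533%, near that of ESCs. In ESC-PGCLCs and PGCs it was 46.4 ± 30.0% and 48.6 ± 23.6%, with 5 and 13 reads of Nnat per ESC-PGCLC library and 53 and 95 per PGC library, and their replicates lay on both sides of the pESC-PGCLC values.

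Gnas encodes the stimulatory G protein subunit that links hormone receptors to adenylyl cyclase. Its locus (chr2:174284320-174346744, plus strand) also makes the maternal transcript Nesp and the paternal transcript XLas from other promoters, and the table counts all of them under the symbol, so the level is their sum. Of its exon bases 22.0% lay under exons of other annotated genes, mostly Gm20721 (13.1%), which makes its counts uncertain. Gnas was at 3.25 and 4.11 TPM in ESCs, 4.04 and 5.39 TPM in pESCs, 11.99 and 12.8 TPM in ESC-PGCLCs, 23.7 and 26.02 TPM in pESC-PGCLCs and 45.9 and 31.9 TPM in PGCs. As for Grb10, the stem cell groups overlapped and the other groups did not, in the same order. It rose on differentiation by 1.52 in the ESC line (standard error 0.212, adjusted p = 0.000620, limma) and by 2.19 in the pESC line (adjusted p = 0.000123, limma), and the difference between these did not pass (0.66, standard error 0.300, adjusted p = 0.162, limma).

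Impact encodes a cytoplasmic inhibitor of the stress kinase Gcn2 and is expressed from the paternal copy. It lies at chr18:12955852-12992950 on the plus strand and was the most abundant of the 10 genes, with a mean of 92.2 TPM over all libraries. Its level was 187.7 and 184.8 TPM in ESCs, 86.3 and 149.99 TPM in pESCs, 48.4 and 47.2 TPM in ESC-PGCLCs, 50.6 and 93.2 TPM in pESC-PGCLCs and 30.1 and 43.96 TPM in PGCs. Its order of groups ran opposite to that of Grb10 and Gnas in having ESCs at the top and PGCs at the bottom. Impact fell by 1.94 on the log2 scale from ESCs to ESC-PGCLCs (standard error 0.344, adjusted p = 0.00221, limma). In the pESC line, where the replicates of pESCs and pESC-PGCLCs overlapped, the value was -0.72 (adjusted p = 0.130, limma). It ranged from -1.15 to -0.29 with a library left out and was called without pESC-PGCLC replicate 2 (-1.15, adjusted p = 0.0421, limma), with voom (-1.01, adjusted p = 0.00415, limma) and after centring. Those 2 changes did not differ detectably (1.22, standard error 0.486, adjusted p = 0.116, limma), but without pESC replicate 2 the difference was 1.61 and passed (adjusted p = 0.0484, limma).

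Plagl1, Zrsr1 and Commd1 passed no 2-fold comparison. Plagl1 (chr10:13060504-13131694, plus strand), a zinc finger transcription factor of the paternal copy, was at 12.4 and 14.6 TPM in ESCs, 7.38 and 11.5 TPM in pESCs, 13.7 and 14.2 TPM in ESC-PGCLCs, 10.1 and 11.3 TPM in pESC-PGCLCs and 19.6 and 13.4 TPM in PGCs. Both groups of pESC origin lay below both groups of ESC origin, yet neither difference passed (adjusted p = 0.339 and 0.344, limma).

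Zrsr1 and Commd1 are nested on chromosome 11. Zrsr1 (chr11:22972005-22976496, plus strand), a retrogene of the paternal copy that resembles a splicing factor subunit, sits inside Commd1 (chr11:22896136-22982382, minus strand), which encodes a protein of copper handling and NF-kB control and is biased to the maternal copy. They shared 412 exon bases, 9.17% of those of Zrsr1, so reads there cannot be assigned without strand. Zrsr1 was at 2.61 and 3.56 TPM in ESCs, 1.65 and 3.65 TPM in pESCs, 4.12 and 4.92 TPM in ESC-PGCLCs, 3.71 and 4.52 TPM in pESC-PGCLCs and 7.08 and 5.50 TPM in PGCs. Commd1 was at 38.5 and 36.05 TPM in ESCs, 49.0 and 47.3 TPM in pESCs, 43.99 and 37.5 TPM in ESC-PGCLCs, 67.02 and 61.2 TPM in pESC-PGCLCs and 46.06 and 49.4 TPM in PGCs. Commd1 was higher in each group of pESC origin than in its ESC counterpart without overlap. Its difference between the PGCLC groups passed the adjusted p at less than 2-fold (0.64, standard error 0.132, adjusted p = 0.0106, limma), but not after centring (0.23, adjusted p = 0.265, limma), quantile normalization (0.22, adjusted p = 0.302, limma) or in a fit of these groups alone (adjusted p = 0.0511, limma). Zrsr1 amounted to 8.32 ± 2.19% of Commd1 in ESCs and 5.53 ± 3.07% in pESCs, and to 11.2 ± 2.65% in ESC-PGCLCs and 6.46 ± 1.30% in pESC-PGCLCs (SD, n = 2 each). The PGCLC groups did not overlap in this ratio, and those of the stem cells did.

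The first comparison asked whether stem cells with maternal chromosomes alone differ in these genes from stem cells of both parents. By limma 0 of the 10 genes were called, a call being an adjusted p under 0.05 over all genes and a change of at least 2-fold, while 0.165% of all genes were called higher in pESCs and 0.616% lower. In the limma fit 3 genes had an unadjusted p under 0.05, as did 17.7% of all genes, namely Igf2r and Commd1, higher in pESCs by 0.39 and 0.36, and Blcap, lower at -0.52 (adjusted p = 0.264, 0.199 and 0.229, limma). Voom on recovered reads called 0 as well, with 5 at that level beside 17.9% of all genes. Nnat, with 3 and 5 reads against 25 and 22, had a log2 difference of -0.84 (standard error 0.369, adjusted p = 0.290, limma). Sorted by the copy that is expressed, the estimates of all 5 genes of the paternal copy were below 0. Those of 4 of the 5 genes counted under the maternal copy were above 0, the exception being Blcap. Gnas was counted there although its level sums transcripts of both copies, and Blcap although its bias is described for brain. The level of Airn was under the detection limit in both groups. The estimates of Airn (-0.11, standard error 0.127), Zrsr1 (-0.21, standard error 0.285) and Grb10 (0.24, standard error 0.220) were about the size of their errors or smaller. Among all genes 59% were below 0. This ordering held in part after each library was centred on the median of its genes, when 3 of 5 genes of the paternal copy were below 0 (Airn at 0.23 and Zrsr1 at 0.12 turned), and without pESC replicate 1 the value of Zrsr1 was 0.20. The libraries of pESCs themselves differed, since replicate 2 was higher in 8 of the 9 members detected in it, with a median ratio of 1.56 beside 1.25 over 11433 genes.

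Between the PGCLC groups, Nnat and Blcap were higher in cells of pESC origin, by 1.39 (standard error 0.369, adjusted p = 0.0294, limma) and 1.54 (standard error 0.203, adjusted p = 0.00146, limma). These were 2 of 10 genes called higher and 0 called lower, where 10.3% of all genes were called higher and 3.08% lower. Gnas (0.95, adjusted p = 0.0152, limma; 0.54 after centring) passed the adjusted p on the higher side and Igf2r (-0.69, adjusted p = 0.0188, limma) on the lower side at less than 2-fold. Centring the libraries turned the background to 5.36% higher and 6.94% lower, and Igf2r was then called lower at -1.104 (adjusted p = 0.00179, limma), while Nnat at 0.98 was no longer called (adjusted p = 0.0605, limma). Nnat also lost its call in a fit of these groups alone (adjusted p = 0.0692, limma) and without ESC-PGCLC replicate 2, pESC-PGCLC replicate 1 or pESC-PGCLC replicate 2 (log2 difference 1.105, 1.26 and 1.53).

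**Figure D3:**
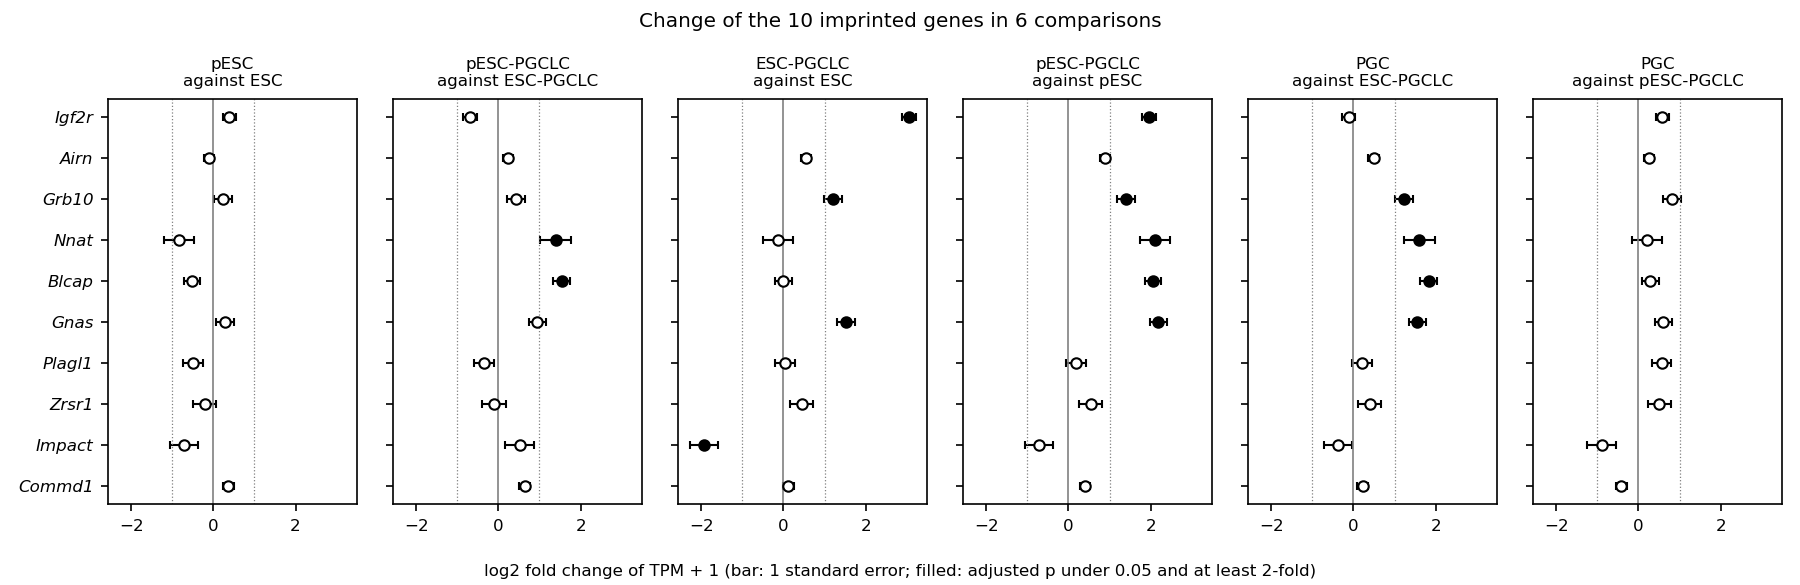
log2 fold change of TPM + 1 (horizontal axis, shared by all panels; the dotted lines mark 2-fold) of each gene in 6 comparisons of groups; bars are 1 standard error from limma and filled points are called genes. No point is filled between pESCs and ESCs or between PGCs and pESC-PGCLCs, and Nnat and Blcap are filled in the panels of pESC-PGCLCs against ESC-PGCLCs, of pESC-PGCLCs against pESCs and of PGCs against ESC-PGCLCs.

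On differentiation of ESCs, 3 of the 10 genes rose (Igf2r, Gnas and Grb10) and 1 fell (Impact), beside 15.3% of all genes called higher and 14.5% called lower. The remaining 6 had values between -0.13 and 0.55. Centring made no change to these calls. All 4 calls remained when any single library of either group was left out. The genes of at least 1 TPM everywhere had a median of -0.0052 in this comparison, so scaling bore little on it.

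On differentiation of pESCs, 5 of the 10 genes rose (Gnas, Nnat, Blcap, Igf2r and Grb10) and 0 fell, beside 20.8% of all genes called higher and 6.8% called lower. Here the scaling mattered. For the 9024 genes that reached 1 TPM in all libraries the median change was 0.64 on the log2 scale, and after centring on them 8.36% of genes were called higher and 18.4% lower. Igf2r (1.23), Nnat (1.37), Blcap (1.33) and Gnas (1.46) were still called higher, Grb10 (0.66, adjusted p = 0.0156, limma) was under 2-fold, and Impact (-1.45, adjusted p = 0.00409, limma) was called lower. The median of the 10 genes was 1.14, or 1.07 with the pESC level of Airn set at its detection limit on the same log2(TPM + 1) scale, beside 0.22 over all genes tested.

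The differences between the changes in both lines were tested directly. Nnat and Blcap changed more in the pESC line and Igf2r less, so that 2 of the 10 genes were called higher and 1 lower, where 15.5% of all genes were called higher and 3.53% lower. All 3 calls held after centring, at 1.49 for Nnat (adjusted p = 0.0429, limma), 1.31 for Blcap (adjusted p = 0.00542, limma) and -1.83 for Igf2r (adjusted p = 0.00118, limma), when the background was 6.34% higher and 14.9% lower. The call of Blcap was kept without any single library. That of Nnat was lost without ESC replicate 1, pESC replicate 1, ESC-PGCLC replicate 2 or pESC-PGCLC replicate 1 (adjusted p = 0.0777, 0.0596, 0.0605 and 0.0647, limma), and that of Igf2r without ESC replicate 2 or pESC-PGCLC replicate 1 (adjusted p = 0.0515 and 0.0530, limma).

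**Figure D4:**
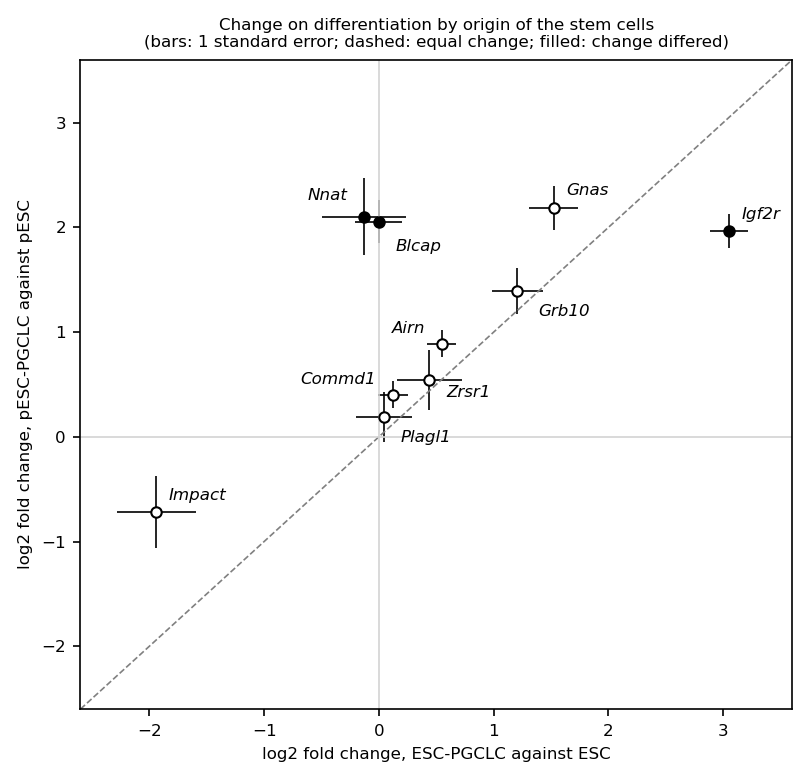
log2 fold change on differentiation of the ESC line (horizontal axis) and of the pESC line (vertical axis) for each gene, with bars of 1 standard error; the dashed line marks equal change and filled points are genes whose changes differed. Nnat (-0.13 and 2.10) and Blcap (-0.0015 and 2.06) lie above the line and Igf2r (3.05 and 1.96) below it.

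Set beside primordial germ cells of the embryo, ESC-PGCLCs had lower levels of 4 of the 10 genes. Blcap (1.83, standard error 0.203, adjusted p = 0.00150, limma), Nnat (1.60, adjusted p = 0.0148, limma), Gnas (1.55, adjusted p = 0.00259, limma) and Grb10 (1.23) were higher in PGCs and 0 were lower, beside 12% of all genes called higher and 1.88% lower. After centring, which turned the background to 2.61% higher and 7.35% lower, Blcap alone was called (1.22, adjusted p = 0.00288, limma). In a fit of these 4 libraries alone 0 genes of the whole table were called, 9328 at an unadjusted p under 0.05. Nnat lost its call without ESC-PGCLC replicate 2 (1.31) or PGC replicate 1 (1.04).

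Between PGCs and pESC-PGCLCs 0 of the 10 genes were called by limma, with 6 at an unadjusted p under 0.05 where 29.2% of all genes reached it, beside 2.07% of all genes called higher in PGCs and 1.6% lower. The same was true of voom, with 0 called and 6 at that level beside 30.7% of all genes. The estimate for Nnat (0.21, standard error 0.369) was smaller than its error. That for Blcap (0.29, standard error 0.203, adjusted p = 0.386, limma) was larger than its error, and its replicates did not overlap between these groups. That p-values missed the threshold does not show that these groups are alike, and both comparisons with PGCs share the PGC libraries.

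Other imprinted genes were followed as lists of 21 genes of the maternal and 24 of the paternal copy, of which 20 and 23 were tested. Between pESCs and ESCs, 4 genes of the paternal copy were called lower and 0 higher, beside 0.616% and 0.165% of all genes. They included Snrpn, a splicing protein, at 98.2 ± 13.8 TPM in ESCs and 8.13 ± 1.88 TPM in pESCs (SD, n = 2 each; -3.45, adjusted p = 0.00250, limma), and Mest, a hydrolase-like protein (-3.33, adjusted p = 0.00250, limma). Snurf (-3.59) shares its transcripts with Snrpn, so the reads of these cannot be told apart. Of the list of the maternal copy Phlda2 was called higher (1.39) and Copg2 lower (-2.24). The differences of Nnat, Impact, Plagl1 and Zrsr1 lay between -0.84 and -0.21 in the same fit. The log2(TPM + 1) scale understates that of Nnat, a low gene. It was -1.94 with a pseudocount of 0.1 and -2.03 with voom, not called in either (adjusted p = 0.110 and 0.189, limma). Impact, Plagl1 and Zrsr1 lay between -0.71 and -0.19 in those fits.

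On differentiation of pESCs 11 genes of the paternal list rose and 1 fell, and 10 of the maternal list rose and 4 fell, beside 20.8% and 6.8% of all genes. In the ESC line 6 of the paternal list rose and 4 fell, as did 7 and 4 of the maternal list, beside 15.3% and 14.5% of all genes. Between the PGCLC groups 4 of the paternal and 3 of the maternal list were higher in pESC-PGCLCs and 0 of either lower, beside 10.3% and 3.08% of all genes. H19, a noncoding RNA of the maternal copy (2.17), and Igf2, the growth factor that Igf2r clears (1.88), were among these. Igf2 was at 1.87 ± 0.158 TPM in ESC-PGCLCs and 9.59 ± 0.648 TPM in pESC-PGCLCs, against 14.1 ± 0.882 and 8.30 ± 0.410 TPM for Igf2r (SD, n = 2 each). The level of the ligand and that of its receptor were thus in opposite order in the PGCLC groups, and a relation between them was not tested. In PGCs both were near the higher PGCLC mean, with Igf2 at 9.19 ± 0.443 TPM and Igf2r at 12.97 ± 2.24 TPM (SD, n = 2 each). Both were low in the stem cell groups, with means of 0.0832 and 0.816 TPM in ESCs and 0.0403 and 1.38 TPM in pESCs. The differences between the changes of both origins were called higher for 7 of the paternal and 5 of the maternal list and lower for 0, beside 15.5% and 3.53% of all genes. PGCs exceeded ESC-PGCLCs in 4 and 6 genes of these lists, with 0 lower, beside 12% and 1.88% of all genes. PGCs exceeded pESC-PGCLCs in 0 of the paternal and 2 of the maternal list, and 2 of the paternal list (Snurf and Snrpn, -2.75 and -1.82) were lower, beside 2.07% and 1.6% of all genes.

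Genes that lie beside the members were listed as well, 28 in all, of which 27 were in the table and 22 were tested. Between pESCs and ESCs 0 of these were called in the limma fit, beside 0.165% of all genes called higher and 0.616% lower. Between the PGCLC groups 4 were higher and 0 lower, beside 10.3% and 3.08% of all genes, among them Ctnnbl1, a splicing-associated protein encoded near Blcap and Nnat, at 6.60 ± 0.340 TPM in ESC-PGCLCs and 18.1 ± 0.182 TPM in pESC-PGCLCs (SD, n = 2 each; 1.33, adjusted p = 0.00268, limma). Ctnnbl1 was at 17.7 ± 2.16 TPM in ESCs, 8.86 ± 2.36 TPM in pESCs and 18.3 ± 3.02 TPM in PGCs. Its means in ESCs, pESC-PGCLCs and PGCs were thus close, whereas Blcap was far lower in ESCs than in pESC-PGCLCs and PGCs. The lowest group was ESC-PGCLCs for Ctnnbl1 and pESCs for Blcap. The difference between the changes of Ctnnbl1 on differentiation passed the test at 2.27 (adjusted p = 0.00140, limma). Of the neighbours 6 rose and 7 fell on differentiation of ESCs, where 15.3% of all genes rose and 14.5% fell. On that of pESCs 8 rose and 1 fell, beside 20.8% and 6.8%. In PGCs 4 were higher and 0 lower than in ESC-PGCLCs, beside 12% and 1.88%. Against pESC-PGCLCs 0 were called, beside 2.07% of all genes higher and 1.6% lower.

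The genes whose TPM pattern over the 10 libraries was most like that of the 3 leading members were found by Pearson's r among 16443 genes, as a description, since libraries of a group and the germ cell state are shared by all of them. For Igf2r these were Mybl1, a transcription factor of germ cells (r = 0.995), Ankle2 (0.994) and Gmcl1 (0.993). For Grb10 they were Aven (0.993), Flrt2 (0.992) and Dvl1 (0.992), and for Nnat Kbtbd2 (0.985), Trim3 (0.984) and Npdc1 (0.982). Mybl1 had means of 1.97 TPM in ESCs, 25.8 TPM in ESC-PGCLCs and 15.5 TPM in pESC-PGCLCs, with the same order of PGCLC groups as Igf2r.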

How the data were processed

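RNA-seq libraries were made from the 5 groups, 2 for each. According to the study's methods reads were mapped to mm10 with Hisat2 and assigned to genes with Feature-counts, while the submitters' processing notes also name Bowtie2, RSEM, DESeq2 and R 3.4.2. The authors deposited TPM, scaled to 1000000 per library, and strand use in counting is not given in the sources used here. Library kits differ between the labels and the methods, and neither kit marks strand. Dates stood in place of 24 symbols, and 0 columns of values were left unmatched to a sample.

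Multiplying TPM by exon length (GENCODE M21, GRCm38) and a factor per library gave whole reads, within 0.02, for 94.7% to 94.9% of values above 0, and depth was 6779838 to 18572901 reads. The reads of Igf2r, Airn and Impact are approximate, since their annotated lengths gave whole numbers in 0, 4 and 0 of the 10 libraries. Values were analysed as log2(TPM + 1). Genes that reached 0.1 TPM in 2 or more libraries, 27259 in all, were fitted with limma 3.58.1 in R 4.3.3, with a mean per group, variances that follow the mean (5 residual and 2.81 prior degrees of freedom) and Benjamini-Hochberg adjustment over all genes. Calls needed an adjusted p under 0.05 and a 2-fold change. The procedure was tested on simulated data.

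The members and the lists of other imprinted genes, neighbours and markers were chosen with earlier results of these data known. All 10 members are given in every comparison, and from the other lists at most the 3 called genes with the largest changes per list and comparison. As alternatives the pseudocount was set to 0.1, the filter was raised to 1 TPM or dropped, and libraries were quantile normalized or centred on the median of 9024 genes that reached 1 TPM throughout. Further alternatives were the replicate number as a block, a fit of the compared groups alone, voom on recovered reads, and leaving out each library in turn. Promoter sequences are from RefSeq (GRCm38.p6). Python 3.11.15 was used with numpy 2.4.6, pandas 2.3.3 and, for figures, matplotlib 3.10.9. Methylation data were not analysed here.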

Additional observations from a re-analysis of the deposited data

Results flagged for a closer look

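Igf2r, Nnat and Blcap are listed because their changes on differentiation differed between the lines by a test of the difference itself. The change in the pESC line minus that in the ESC line was -1.09 for Igf2r, 2.23 for Nnat and 2.06 for Blcap on the log2 scale (adjusted p = 0.0130, 0.0188 and 0.00209, limma). For Blcap the sign was the same in every fit with a library left out, and its call was kept in all of them. For Nnat the values ranged from 1.94 to 2.52 and for Igf2r from -1.15 to -1.03 over those fits, with the lost calls named above. Groups of 2 libraries are too small to single out a library as far from the others.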

How the results depend on the processing

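Counts were taken over the 10 genes, 7 comparisons and the alternatives that keep every library. Of these log2 fold changes 506 kept direction and call, 13 lost the call, 9 gained it and 32 changed sign. The changes of filter, the replicate block and the fit of the compared groups alone leave a log2 fold change as it is. Under these only the call could change, so the count overstates how stable directions are. With a library left out 18 changed sign, and the cause of all these changes was not tested. The number of genes called between the PGCLC groups was 2, and 1 in a fit of those groups alone and 3 with quantile normalization (Igf2r added at -1.08, adjusted p = 0.00227, limma). The call of Nnat changed with some libraries left out, as given above. Between PGCs and ESC-PGCLCs the number of genes called was 4, and 2 with quantile normalization, 1 with centring and 0 with the compared groups alone. For the difference between the lines it was 3, and 4 with voom, which added Airn (2.82, adjusted p = 0.0386, limma), a gene with 0 reads in pESCs. The calls of Nnat and Igf2r changed with some libraries left out, as given above.

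Quantile normalization changed the sign of Plagl1 and Zrsr1 in pESC-PGCLCs against pESCs (-0.46 and -0.071), of Plagl1, Zrsr1 and Commd1 in PGCs against ESC-PGCLCs (-0.40, -0.22 and -0.22), of Nnat in PGCs against pESC-PGCLCs (-0.052), and of Grb10, Plagl1, Zrsr1 and Commd1 for the difference between the lines (-0.22, -0.58, -0.39 and -0.36). Centring did so for Airn and Zrsr1 in pESCs against ESCs (0.23 and 0.12), Airn between the PGCLC groups (-0.17), Blcap in ESC-PGCLCs against ESCs (0.012), Plagl1, Zrsr1 and Commd1 in pESC-PGCLCs against pESCs (-0.54, -0.19 and -0.33), Airn, Plagl1, Zrsr1 and Commd1 in PGCs against ESC-PGCLCs (-0.12, -0.40, -0.21 and -0.38), and Airn, Grb10, Gnas, Plagl1, Zrsr1 and Commd1 for the difference between the lines (-0.40, -0.56, -0.082, -0.60, -0.64 and -0.46). Voom did so for Plagl1 in ESC-PGCLCs against ESCs (-0.019) and in pESC-PGCLCs against pESCs (-0.079), and for Grb10, Plagl1 and Zrsr1 between the lines (-0.20, -0.060 and -0.040). Airn passed 2-fold with a pseudocount of 0.1 (1.92 in the ESC line, 3.25 in the pESC line) and with voom (2.66 and 5.48).

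With a library left out, values changed sign within these ranges. In pESCs against ESCs they were -0.62 to 0.20 for Zrsr1 and -0.0090 to 0.48 for Grb10, and between the PGCLC groups -0.22 to 0.0034 for Zrsr1. In ESC-PGCLCs against ESCs they were -0.42 to 0.16 for Nnat, -0.10 to 0.094 for Blcap and -0.066 to 0.16 for Plagl1, and in pESC-PGCLCs against pESCs -0.10 to 0.48 for Plagl1. In PGCs against ESC-PGCLCs they were -0.055 to 0.46 for Plagl1 and -0.28 to 0.048 for Igf2r, and against pESC-PGCLCs -0.35 to 0.77 for Nnat. For the difference between the lines they were -0.31 to 0.51 for Zrsr1, -0.061 to 0.43 for Grb10 and -0.15 to 0.43 for Plagl1.

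The replicate number as a block cannot move a log2 fold change, since each number occurs once in every group. It can change only errors and p-values. With it 0 of 70 results changed call, and the genes called in each comparison numbered 0, 2, 4, 5, 4, 0 and 3 as without it. Same-numbered libraries had a correlation of deviations between -0.041 and 0.21 over 10 pairs of groups. The labels do not say whether the numbers pair the samples, and low correlations cannot exclude it. Over all genes the calls between pESCs and ESCs were 213, and 78 with the block, 247 with a pseudocount of 0.1, 402 with a filter of 1 TPM, 132 without a filter, 122 with quantile normalization, 459 with voom and 0 with the compared groups alone. With a library left out they were 2 to 962. PGCs against pESC-PGCLCs gave 1000 calls, and 1956 with voom, 0 with those groups alone and 15 to 2015 with a library left out. PGCs against ESC-PGCLCs gave 3772, and 6140 with the lower pseudocount, 1906 with quantile normalization and 0 with those groups alone. Voom gave 12295 in place of 8122 calls on differentiation of ESCs and 11317 in place of 7535 on that of pESCs, and the difference between the lines gave 3345 in place of 5197 without ESC replicate 1. Depth limits Airn and Nnat, whose counts in some libraries were 0 to 5 reads.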
